A study of Oncorhynchus mykiss with 12 samples.

Results

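The minichromosome maintenance (MCM) genes mcm2 to mcm7 were examined in the liver of rainbow trout (Oncorhynchus mykiss). Loci were taken from the RNA-seq table by symbol, mcm2 to mcm7 with an optional suffix for a copy, or by a description that opens with DNA replication licensing factor mcm. This took 11 of the 42128 rows. The study compared wild-type fish kept as controls with wild-type fish kept for 1 month in water of moderately low oxygen (4.5 ± 0.1 mg/L, the hypoxia group), with 3 RNA-seq libraries in each group. The labels do not say whether the 3 libraries of a group came from separate fish, so a p-value reflects the scatter of these particular libraries, possibly technical. Age and the oxygen level of the controls are not stated in the labels either. The 6 small RNA libraries were not analysed here. None of the 12 samples is labelled as from the study's 12 h hypoxia group.

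The products of mcm2 to mcm7 are the subunits of one ring-shaped complex that opens the DNA double helix ahead of the replication machinery. The ring holds each subunit once. It is loaded onto origins by the origin recognition complex, Cdc6 and Cdt1, and becomes the active helicase once Cdc45 and the GINS complex have joined it. In mammals the MCM genes are targets of E2F transcription factors and are transcribed as cells leave quiescence, and most hepatocytes of an adult liver are quiescent. The salmonid lineage went through its own doubling of the genome, and many trout genes exist as a pair of similar copies.

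Both loci of mcm2, mcm4 and mcm5 and the single measured loci of mcm3 and mcm7 had higher transcript levels in every hypoxia library than in any control library. Their fold changes ran from 3.57 at mcm7 to 7.85 at one mcm2 locus. The remaining 3 loci were Mcm6, at a low level in both groups though also without overlap, and mcm3l and mcm6l, listed at 0 throughout. Levels are in the authors' FPKM, a count scaled for gene length and library size, and are given per library in the order of replicates 1, 2 and 3. A change is given as the log2 ratio of hypoxia to control that edgeR fitted to the counts (quasi-likelihood test), with its standard error (SE). Its p-value was adjusted by Benjamini-Hochberg over all 19365 genes with a mean of at least 0.5 FPKM. Of the 11 loci 8 passed that filter, and all 8 that passed had an adjusted p under 0.05 in the higher direction and 0 in the lower. Of all genes tested 3.83% were called higher, 3.39% lower and 7.22% in either direction. The MCM genes were chosen with earlier results of these data known, so these counts describe them and are not independent support. Every hypoxia library lay above every control library at these 8 loci, which held for 13.9% of all genes tested. At 2 of the 8, the lower copies of mcm2 and mcm5, the control mean was under 0.5 FPKM, so these passed the filter only through the hypoxia libraries. With the filter set on the control libraries alone, an alternative chosen after seeing the data, 6 loci were tested and 6 were higher, against 3.61% of 19168 genes.

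The libraries held 19060468 to 23152833 counts. At the 8 loci a single library gave between 11 and 949 counts. The smallest value, 11 counts of mcm2 (110528595) in control replicate 3, has an exact Poisson 95% interval of 5.49 to 19.7 counts, which covers counting error only. The 11 loci summed to 48.8, 19.04 and 15.0 CPM (counts scaled to library size) in the controls and to 112.5, 94.5 and 170.8 CPM in hypoxia. Hepatocyte genes were by far the most abundant of the cell type markers, led by the plasma protein genes apoa2, tfa and alb1, as the label liver implies.

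**Figure D1:**
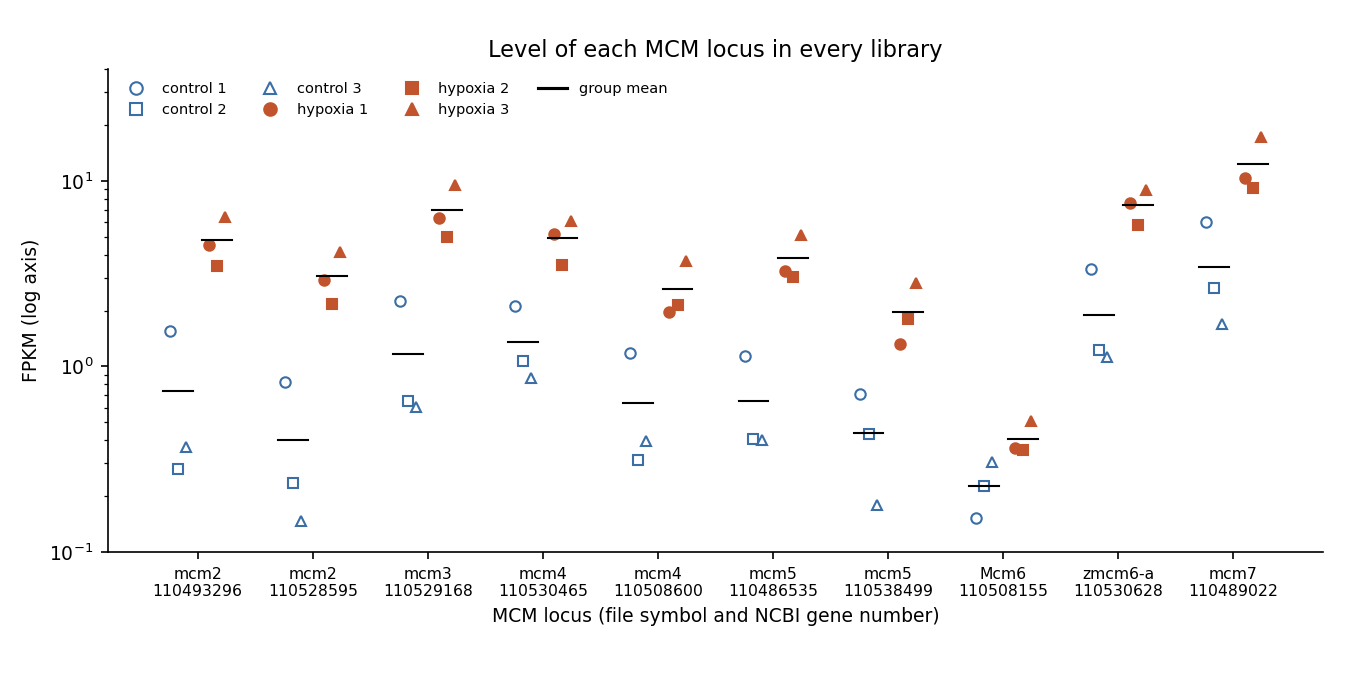
FPKM (log axis) of each MCM locus with a count, and of zmcm6-a, in the 3 control libraries (open blue) and the 3 hypoxia libraries (filled orange), with group means as black bars. At every locus except Mcm6 control replicate 1 is the highest control, and hypoxia replicate 3 is the highest hypoxia library at each of them.

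The subunit Mcm2 sits at one side of the gate through which the ring opens around DNA. At mcm2 (110493296) the controls had 1.553, 0.280 and 0.369 FPKM and the hypoxia libraries 4.531, 3.493 and 6.350 FPKM. The lowest hypoxia library stood 2.25 times above the highest control, although control replicate 1 was several times above the other controls. The group means were 0.734 ± 0.711 and 4.79 ± 1.45 FPKM (SD, n = 3), and the locus rose by 2.72 (SE 0.46, edgeR adjusted p = 0.00944). The second copy (110528595) had 0.824, 0.234 and 0.147 FPKM in controls and 2.916, 2.156 and 4.127 FPKM in hypoxia. It had the same order of libraries within the hypoxia group as the first copy. It rose by 2.97 (SE 0.44, edgeR adjusted p = 0.00793), from 0.402 ± 0.368 to 3.07 ± 0.994 FPKM.

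Mcm3 is the neighbour of Mcm5 in the ring. The mcm3 locus (110529168) had 2.264, 0.649 and 0.602 FPKM in controls and 6.335, 4.990 and 9.453 FPKM in hypoxia. It rose by 2.58 (SE 0.41, edgeR adjusted p = 0.00882), from 1.17 ± 0.946 to 6.93 ± 2.29 FPKM. Mcm3l (110524650) had 0 counts in all 6 libraries. For a count of 0 these depths allow up to 0.13 to 0.157 CPM, taken as 3 counts in a library. In the frog Xenopus, Mcm3 and Mcm6 exist as separate maternal and zygotic forms, the maternal forms being those of the egg and early embryo.

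Mcm4 belongs, with Mcm6 and Mcm7, to the trio that shows helicase activity by itself in a test tube. The more abundant mcm4 locus (110530465) had 2.105, 1.075 and 0.867 FPKM in controls and 5.184, 3.517 and 6.105 FPKM in hypoxia. It rose by 1.89 (SE 0.28, edgeR adjusted p = 0.00793), from 1.35 ± 0.663 to 4.94 ± 1.31 FPKM. The other copy (110508600) had 1.180, 0.315 and 0.398 FPKM in controls and 1.968, 2.137 and 3.714 FPKM in hypoxia. Its lowest hypoxia library was 1.67 times its highest control, and this ratio was also 1.67 at 110530465. The locus 110508600 rose by 2.05 (SE 0.41, edgeR adjusted p = 0.0167). This call was lost without control replicate 3 (adjusted p = 0.0586) and without hypoxia replicate 3 (adjusted p = 0.0726).

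Mcm5 forms the other side of the gate and meets Mcm2 there. At mcm5 (110486535) the controls had 1.138, 0.406 and 0.400 FPKM and the hypoxia libraries 3.266, 3.046 and 5.126 FPKM. Of the 8 loci this one had the widest gap between groups as a ratio, with the lowest hypoxia library 2.68 times the highest control. It rose by 2.56 (SE 0.34, edgeR adjusted p = 0.00679), from 0.648 ± 0.424 to 3.81 ± 1.14 FPKM. The second copy (110538499) had 0.707, 0.432 and 0.179 FPKM in controls and 1.328, 1.790 and 2.802 FPKM in hypoxia. It rose by 2.17 (SE 0.39, edgeR adjusted p = 0.0122), a call that was lost without hypoxia replicate 3 (adjusted p = 0.0542).

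Mcm7 was the most abundant subunit in all 6 libraries. Its single locus (110489022) had 6.008, 2.631 and 1.687 FPKM in controls and 10.411, 9.106 and 17.292 FPKM in hypoxia. The groups did not overlap, and the lowest hypoxia library was 1.52 times the highest control, the smallest such ratio of the 8 loci. It rose by 1.83 (SE 0.37, edgeR adjusted p = 0.0173), from 3.44 ± 2.27 to 12.3 ± 4.40 FPKM. The call was lost without control replicate 2 (adjusted p = 0.0567) and without hypoxia replicate 3 (adjusted p = 0.0709).

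The sixth subunit was measured mainly at a locus outside the naming rule. The Mcm6 locus (110508155) was at 0.152, 0.228 and 0.304 FPKM in controls and 0.362, 0.353 and 0.511 FPKM in hypoxia, from 10 to 33 counts a library. The lowest hypoxia library (0.353 FPKM) was above the highest control (0.304 FPKM), each from 24 counts. The mean of this locus lay below the filter. In a fit with no filter its log2 fold change was 0.79 (SE 0.40, edgeR adjusted p = 0.335), while 2.88% of 34217 genes were called higher there. Mcm6l (110530373) had 0 counts in every library. The table also holds zmcm6-a (110530628), described as a zygotic mcm6, with 3.332, 1.224 and 1.124 FPKM in controls and 7.570, 5.768 and 8.932 FPKM in hypoxia. This locus had the same pattern over the libraries as the loci above, with control replicate 1 the highest control. It rose by 1.97 (SE 0.33, edgeR adjusted p = 0.00903), from 1.89 ± 1.25 to 7.42 ± 1.59 FPKM, and kept its call in each of the 6 fits without 1 library.

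In the authors' deposited table the same 8 loci have an adjusted p under 0.05, with log2 fold changes of 1.83 to 2.93 and adjusted p up to 0.0287, where 1.69% of all rows are called higher. That table gives zmcm6-a an adjusted p of 0.0035 and Mcm6 one of 0.584.

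The pairs of loci lie in similar surroundings. On the reference assembly USDA_OmykA_1.1, used here only for the order of genes because no label or header names the build of the files, the mcm2 loci share 6 neighbour names within 5 genes on either side, among them tma7, ccdc51, podxl2 and slc6a6. The mcm4 loci share 8, among them cebpd, snai2 and mapre2. The mcm5 loci share 7, among them ankrd54, foxred2 and tom1. Mcm6 and zmcm6-a share casp8, cxcr4 and rem2, which makes 3. The reads of near-identical copies can be split between them, and single copies are uncertain to that extent.

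Within a pair, no difference in the proportion of the copies exceeded the spread of the libraries. The mcm2 locus 110493296 gave 63.8 ± 8.63% of the summed mcm2 FPKM in controls and 61.1 ± 0.65% in hypoxia. For mcm4, 110530465 gave 70.0 ± 6.75% and 65.6 ± 5.94%. For mcm5, 110486535 gave 59.7 ± 10.5% and 66.2 ± 4.28%. Two-sided exact permutation tests of the log2 ratio of the copies over the 6 libraries gave p = 0.7 for mcm2, 0.5 for mcm4 and 0.4 for mcm5, where 0.1 is the smallest p that 3 against 3 libraries allow. The mcm6 pair was the most uneven, with 95.6, 84.3 and 78.7% from zmcm6-a in controls and 95.4, 94.2 and 94.6% in hypoxia (exact permutation p = 0.4). Control replicate 1 was at the level of the hypoxia libraries in this proportion.

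With the copies of a subunit added before the fit, each subunit that passed the filter was higher. Mcm6, added here without zmcm6-a, had means of 0.228 FPKM in controls and 0.409 FPKM in hypoxia and did not pass. The rise was 2.81 (SE 0.46) for mcm2, 2.58 (SE 0.41) for mcm3, 1.94 (SE 0.31) for mcm4, 2.40 (SE 0.34) for mcm5 and 1.83 (SE 0.37) for mcm7, with edgeR adjusted p between 0.00798 and 0.0174. Copies of a subunit are not independent observations, and 5 subunits here stand for the 8 loci.

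Set side by side in FPKM, which is per length, the ratio of the highest to the lowest subunit was smaller in every hypoxia library than in any control, while their difference in FPKM was larger. For this comparison zmcm6-a was counted with mcm6, a choice made after its values were seen. In control the summed levels were 3.44 ± 2.27 FPKM for mcm7, 2.12 ± 1.18 for mcm6, 1.98 ± 1.13 for mcm4, 1.17 ± 0.946 for mcm3, 1.14 ± 1.08 for mcm2 and 1.09 ± 0.669 for mcm5. Within libraries mcm7 exceeded mcm6, mcm6 exceeded mcm4 and mcm4 exceeded mcm3 in 3 of 3 controls, whereas mcm3, mcm2 and mcm5 changed places between controls. In hypoxia the levels were 12.3 ± 4.40 FPKM for mcm7, 7.86 ± 2.44 for mcm2, 7.83 ± 1.66 for mcm6, 7.54 ± 2.11 for mcm4, 6.93 ± 2.29 for mcm3 and 5.79 ± 1.86 for mcm5. There mcm7 was above mcm2, mcm4 above mcm3 and mcm3 above mcm5 in 3 of 3 libraries, while mcm2, mcm6 and mcm4 did not keep one order. The most abundant subunit stood 3.26, 5.12 and 3.27 times above the least abundant in the controls and 2.27, 1.88 and 2.18 times in hypoxia. The same gap as a difference was 4.16, 2.12 and 1.17 FPKM in the controls and 5.82, 4.27 and 9.36 FPKM in hypoxia.

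The shares of the subunits in their summed FPKM moved accordingly. Mcm2 made up 9.24 ± 2.81% of the sum in controls and 16.3 ± 0.718% in hypoxia (SD, n = 3), and its share was larger in every hypoxia library than in any control. The share of mcm3 was also larger in every hypoxia library, at 10.1 ± 1.55% against 14.3 ± 0.495%. Those of mcm7 (31.4 ± 3.72% against 25.2 ± 1.56%) and mcm4 (18.8 ± 1.89% against 15.7 ± 0.544%) were smaller in every hypoxia library. Each of these comparisons had p = 0.1 in a two-sided exact permutation test, the smallest that 3 against 3 libraries allow, so none can pass 0.05, and 6 shares were compared. The 6 shares add to 100% and are not independent. Mcm6 with zmcm6-a went from 20.3 ± 2.82% to 16.5 ± 1.73% (exact permutation p = 0.1) and mcm5 from 10.1 ± 0.958% to 12.0 ± 1.44% (exact permutation p = 0.2).

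**Figure D2:**
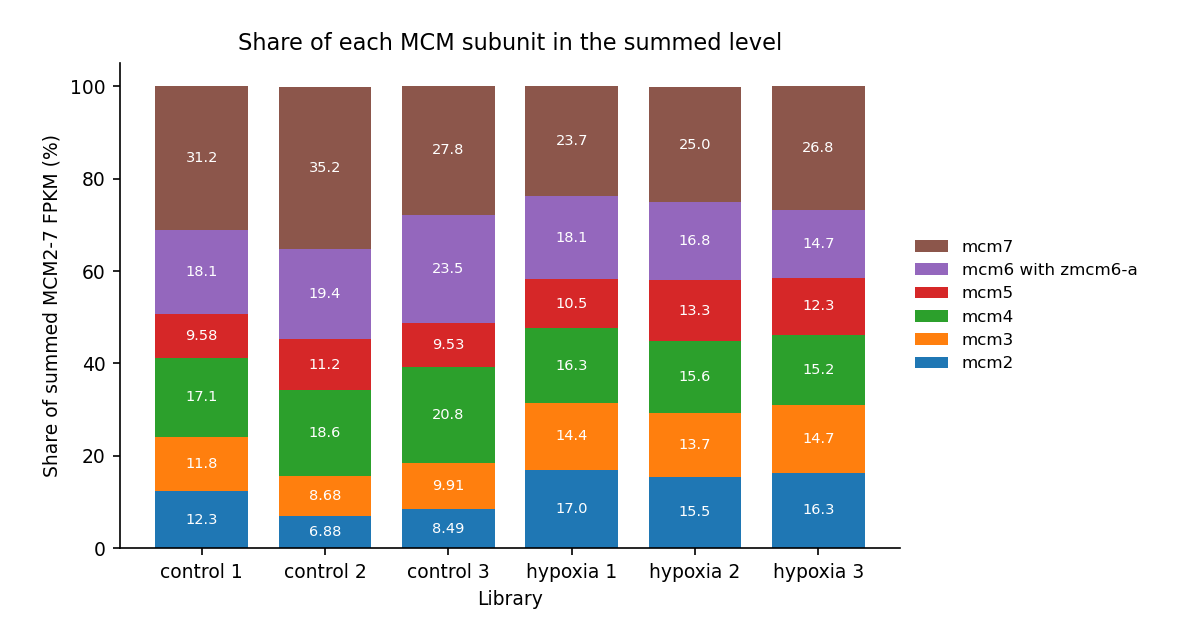
Share of each MCM subunit (%) in the summed FPKM of mcm2 to mcm7, one bar per library, with mcm6 including zmcm6-a. The mcm2 share is 12.3% or less in the controls and 15.5% or more in the hypoxia libraries, and mcm7 has the largest share in all 6.

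The loci varied together between libraries of one group. Control replicate 1 was the highest control at 8 of the 8 loci that passed the filter, and hypoxia replicate 3 was the highest hypoxia library at 8 of 8. Over all genes tested these shares were 46.5% and 41.9%. In the list of helicase activation genes described below they were 71.4% and 100%. From the lowest to the highest control a locus differed by 2.43 to 5.61 times, and by 1.68 to 2.11 times between hypoxia libraries. The summed level of the 6 subunits, zmcm6-a included, was 19.3, 7.47 and 6.08 FPKM in the controls and 43.9, 36.4 and 64.4 FPKM in hypoxia. Control replicate 1 stood between the other controls and the hypoxia libraries.

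The size of the rise depended on the libraries used. Without control replicate 1 the log2 fold changes were 3.80 and 3.95 for mcm2 (110493296 and 110528595), 3.44 for mcm3, 2.31 and 2.80 for mcm4 (110530465 and 110508600), 3.18 and 2.64 for mcm5 (110486535 and 110538499) and 2.45 for mcm7, with edgeR adjusted p of 0.00404 or less. With 1 other library left out the changes went as low as 2.36 and 2.575 for mcm2 and 2.26 for mcm3. The lowest were 1.66 and 1.73 for mcm4, 2.31 and 1.80 for mcm5 and 1.52 for mcm7, with loci in the same order. When one control was left out, 8 loci (replicate 1) or 7 loci (replicate 2 or 3) were called higher. When one hypoxia library was left out, 8 loci (replicate 1 or 2) or 5 loci (replicate 3) were called higher. Of the 19365 genes tested, 1130, 268 and 266 were called higher without control replicate 1, 2 and 3. Without hypoxia replicate 1, 2 and 3 these were 234, 305 and 229, against 741 with all libraries.

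Of the genes within 2 places of a locus 19 passed the filter, with a median log2 fold change of 0.25 against -0.0046 over all genes tested. Of these, 2 (10.5%) were called higher, against 3.83% of all genes tested, and 0 lower in edgeR. The 2 were cebpd (1.01, adjusted p = 0.042) and spidr (0.71, adjusted p = 0.0493), both beside the mcm4 locus 110508600. They are named because the count is small, after their values were seen.

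Partners of the helicase were read from lists of symbols, with copies matched by the same suffixes. The lists, here and below, were also chosen with earlier results of these data known, and their counts are a description. The loading list holds the origin recognition complex, Cdc6, Cdt1, the Cdt1 inhibitor geminin and the MCM binding protein. Of its 16 loci 12 passed the filter, 4 were higher and 0 lower in edgeR, and the median log2 fold change was 0.56. For this list and those below, the shares over all genes tested were 3.83% higher and 3.39% lower, with a median of -0.0046. Orc1, the subunit of the origin recognition complex whose level varies most over the mammalian cell cycle, had 0.366, 0.254 and 0.089 FPKM in controls and 1.059, 0.818 and 1.204 FPKM in hypoxia. It rose by 2.12 (SE 0.37, edgeR adjusted p = 0.0108). The other called members were orc3 (rose by 0.83, SE 0.16), mcmbp (rose by 0.73, SE 0.16) and geminin, Gmnn (110496552, rose by 1.69, SE 0.42). The more abundant Gmnn locus (110487922) was at 0.01. With 1 library omitted at a time, the call of Gmnn (110496552) was lost in 6 of 6 fits. The calls of orc3 and mcmbp were lost in 5 and that of orc1 in 1. The list had 0 to 4 members higher over these fits. Over all genes 229 to 1130 were called higher in them, against 741 with all libraries.

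Both cdt1 loci and both cdc6 loci lay below the filter. They are given because they complete the loading step, a choice made after their values were seen. Cdt1 (110526297) had 0.193, 0.254 and 0.096 FPKM in controls and 0.725, 0.577 and 0.765 FPKM in hypoxia, a log2 fold change of 1.89 (SE 0.41, edgeR adjusted p = 0.00607) in the fit with no filter. The second cdt1 locus (110506411) was at 2.58 there (edgeR adjusted p = 0.011). The cdc6 loci had log2 fold changes of 1.85 and 1.42 with adjusted p of 0.362 and 0.353, which did not pass. At both cdt1 loci control replicate 1 was not the highest control. Here and below, adjusted p-values of the fit with no filter are not comparable with those of the fit with the filter. At mcm2 (110493296) the edgeR adjusted p was 4.28e-05 with no filter and 0.00944 with it. The log2 fold changes there were 2.725 and 2.724.

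The activation list holds Cdc45, the GINS subunits, Mcm10, the kinase Cdc7 with Dbf4, and factors that travel with the fork. Of its 28 loci 14 passed the filter, 7 were higher and 0 lower in edgeR, with a median of 0.91. Of all genes tested 3.83% were higher. Of these 7, 5 were GINS loci and the other two were TIMELESS and wdhd1. Gins4 (110536039), a GINS subunit also called SLD5, had 0.811, 0.399 and 0.486 FPKM in controls and 2.824, 2.256 and 3.924 FPKM in hypoxia and rose by 2.39 (SE 0.31, edgeR adjusted p = 0.0064). Gins3 was even among controls, at 0.799, 0.824 and 0.839 FPKM, and rose by 1.44 (SE 0.25) to 2.27 ± 0.348 FPKM. GINS2 (110506613) rose by 2.23 (SE 0.40), and TIMELESS (110494196), a protein that stabilises paused forks, by 1.80 (SE 0.24). These 4 loci kept their calls in the 6 fits without 1 library, which used the filter over all libraries. GINS2 (control mean 0.278 FPKM) and TIMELESS (control mean 0.472 FPKM) passed that filter only through the hypoxia libraries, a selection these fits do not test. The second Gins4 locus (110525671) rose by 1.66 (SE 0.39), a call lost in 5 of these fits and under limma with a pseudocount of 0.1 (adjusted p = 0.0539). Cdc45, below the filter, had 0.100, 0.117 and 0.028 FPKM in controls and 0.411, 0.417 and 0.371 FPKM in hypoxia, with an edgeR adjusted p of 0.0111 at a log2 fold change of 2.27 in the fit with no filter. The single cdc7 locus was at 0.74 (adjusted p = 0.623) in that fit. Another Timeless locus (110528997), also below the filter, was at 0.52 there (edgeR adjusted p = 0.606).

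Other genes carry the MCM name without a place in the ring, apart from zmcm6-a. Of 7 such loci 5 passed the filter and 2 were higher, zmcm6-a and mcmbp, with a median of 0.73. Of all genes tested 3.83% were higher. Mcm8, a helicase subunit that acts with Mcm9 in homologous recombination, was at 0.47 (edgeR adjusted p = 0.213), with 1.39 ± 0.313 FPKM in controls and 1.94 ± 0.302 FPKM in hypoxia. Mcm10, which helps to activate the helicase, was at 0.76 (110500141, edgeR adjusted p = 0.0941). MCM3AP, a protein of mRNA export and histone acetylation, was at 0.25 (edgeR adjusted p = 0.308). Mcm9 was below the filter, with 0.037, 0 and 0.010 FPKM in controls and 0.210, 0.169 and 0.178 FPKM in hypoxia, and passed in the fit with no filter (edgeR adjusted p = 0.012). The difference between these loci and the ring subunits was not tested.

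**Figure D3:**
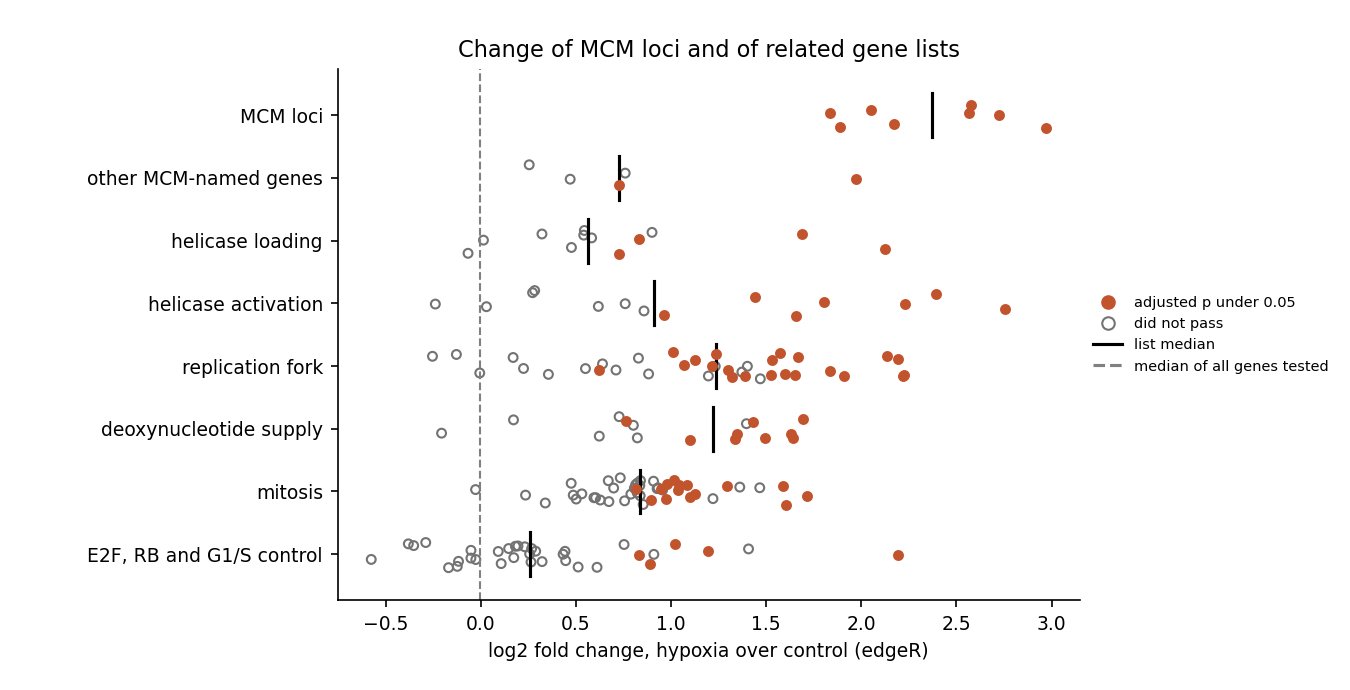
Log2 fold change (hypoxia over control, edgeR) of the MCM loci and of 7 lists of related genes, one point per locus that passed the filter, with filled points for an adjusted p under 0.05, black bars for medians and a dashed line for the median of all genes tested. The MCM loci lie between 1.83 and 2.97, and the medians of the lists between 0.26 and 1.24.

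Lists for the later steps of DNA synthesis and for cell division also had members that rose. Over all genes tested the shares were 3.83% higher and 3.39% lower. Among 37 tested loci of the replication fork 21 were higher and 0 lower, with a median of 1.24. Prim1, a subunit of primase, rose by 2.19 (SE 0.30), and pcna (110525832), the sliding clamp of the polymerases, by 1.24 (SE 0.19) from 6.07 ± 1.63 to 14.5 ± 3.06 FPKM. The maintenance methyltransferase DNMT1 (110486372) rose by 1.32 (SE 0.19) and rpa1 (110507776), which coats single-stranded DNA, by 1.13 (SE 0.18). For deoxynucleotide supply 9 of 16 were higher and 0 lower, with a median of 1.22. Rrm2 (110529451), a subunit of ribonucleotide reductase, rose by 1.64 (SE 0.16) and Dctd, which feeds dTMP synthesis, by 1.63 (SE 0.16). Tyms, which makes dTMP, rose by 1.43 (SE 0.18) and rrm1 (110533741) by 1.35 (SE 0.25), a call lost without hypoxia replicate 3 (adjusted p = 0.0569).

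The mitosis list had 15 of 46 higher and 0 lower, with a median of 0.84, against 3.83% higher over all genes tested. Mki67, which marks cycling cells, rose by 1.08 (SE 0.16). Cenpe, a kinetochore motor, rose by 0.95 (SE 0.19), kif23, a motor of cell separation, by 1.10 (SE 0.23), and the checkpoint gene MAD2L1 (110531872) by 1.59 (SE 0.36). With one library omitted at a time MAD2L1 was no longer called in 5 of 6 fits (adjusted p up to 0.0891), and cenpe and kif23 in 3 each. With limma 9, 8 and 9 members of this list were higher at pseudocounts of 0.5, 0.1 and 1. Over the 6 fits without 1 library the mitosis count ran from 1 to 10 and that of the fork list from 9 to 24. The deoxynucleotide supply count ran from 3 to 10. Over all genes the number called higher ran from 229 to 1130 in these fits, against 741 with all libraries. The mitosis count was 10 without replicate 1 of either group, 3 without control replicate 2, and 1 when control replicate 3 or hypoxia replicate 2 or 3 was omitted. The fork count was 9 without replicate 1 of the hypoxia group and 24 without that of the controls. In the mitosis list control replicate 1 was the highest control at 13 of its 46 loci (28.3%), against 27 of 37 for the fork list and 8 of 8 MCM loci. For hypoxia replicate 3 the counts were 28 of 46, 25 of 37 and 8 of 8. The activation list had control replicate 1 highest at 10 of 14 tested loci and hypoxia replicate 3 at 14 of 14. Over all genes tested the shares were 46.5% and 41.9%.

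Among E2F factors, their RB partners and other G1/S regulators, 5 of 35 tested loci were higher and 0 lower, with a median of 0.26. Of all genes tested 3.83% were higher. Ccnd1 (110526228), cyclin D1, rose by 0.89 (SE 0.14) from 2.49 ± 0.203 to 4.67 ± 0.478 FPKM, and rbl1, the RB relative p107, by 1.02 (SE 0.19). Lin52 (110497932), part of the DREAM complex that represses cell cycle genes, rose by 2.19 (SE 0.55), and cdkn1ba, which belongs to the CDK inhibitors, by 0.83 (SE 0.21). The calls of rbl1, lin52 and cdkn1ba ended in 2, 4 and 5 of the fits that omit one library, cdkn1ba also under limma (adjusted p = 0.0610 to 0.0704), and the list had 1 to 5 members higher over these fits and 3 under limma at each pseudocount. In the fit with no filter 13 of its 71 loci were higher and 0 lower, where 2.88% of all genes were called higher. The ccnd1 loci 110499952 and 110506401, below the filter, did not pass there. Their log2 fold changes were 1.15 and -0.24 (edgeR adjusted p = 0.0994 and 0.809). Of the 14 loci with an E2F symbol that lay below the filter 4 were higher in the fit with no filter and 0 lower. The others had log2 fold changes of -2.30 to 2.91. The ends of that range were E2F2 (110498389, SE 1.96) and e2f7 (110500963, SE 1.04), at 0.13 FPKM or less in every library. The 4 that were higher were both e2f1 loci, E2f3 (118937342) and e2f8 (110506289). In that fit E2f3 had a log2 fold change of 1.93 (edgeR adjusted p = 0.00773) and e2f8 one of 1.99 (edgeR adjusted p = 0.00564). Other loci of these names did not pass there, such as e2f3 (110487854, edgeR adjusted p = 0.718) and e2f8 (110526169, edgeR adjusted p = 0.212). E2F1 (110532406) had 0.321, 0.170 and 0.116 FPKM in controls and 0.826, 0.683 and 0.590 FPKM in hypoxia, with a log2 fold change of 1.78 (edgeR adjusted p = 0.00337) in the fit with no filter. The other e2f1 locus (110492203) was at 1.47 there (adjusted p = 0.0144). These loci were named after their values were seen.

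Many loci of these lists lie near the filter, and some passed only through the hypoxia libraries. Among those named above, orc1, Gmnn (110496552), GINS2 (110506613), TIMELESS, lin52 (110497932) and MAD2L1 (110531872) had control means under 0.5 FPKM. The fits without 1 library kept the filter over all libraries and do not test that selection. With the filter on the control libraries alone, those higher numbered 2 of 10 for loading, 4 of 10 for activation, 13 of 23 for the fork, 8 of 14 for deoxynucleotide supply, 10 of 34 for mitosis and 3 of 31 for the G1/S regulators. With no filter they numbered 6 of 16, 12 of 27, 28 of 47, 10 of 20, 23 of 68 and 13 of 71 in the same order. Of all genes 3.61% were higher with the filter on the controls and 2.88% with no filter.

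The genes whose pattern over the 6 libraries came nearest to the mean of the 8 MCM loci were found among 14840 other genes with a product name and a mean of at least 1 FPKM. Likeness was the root-mean-square difference of the centred log2(FPKM + 0.5) values, for which the median gene was at 1.00. Nearest was zmcm6-a at 0.117. Among the loci themselves, which are part of that mean, mcm5 (110486535) was at 0.087, mcm2 (110528595) at 0.112 and the others at 0.156 to 0.311. Next came Nasp (0.153), a histone chaperone, cdca7a (0.178), a cell division cycle associated gene, and NPM1 (110509917, 0.198), a nucleolar histone chaperone. These were followed by selenoh (0.201), a selenoprotein of the nucleolus, Gins4 (110536039, 0.211), the alanyl-tRNA synthetase aars1 (0.242, its call lost in 1 fit that omits one library) and the second Gins4 locus (110525671, 0.243). Nasp had 1.175, 0.397 and 0.451 FPKM in controls and 2.651, 2.762 and 3.886 FPKM in hypoxia. The mean of at least 1 FPKM was taken over all 6 libraries, which favours genes that rise. Nasp, cdca7a and Gins4 (110536039) had control means of 0.674, 0.209 and 0.565 FPKM and reached it only through the hypoxia libraries. Cdca7a passed the filter of 0.5 FPKM in the same way. Mcm6 (110508155), at 0.152 to 0.511 FPKM, cannot be placed by this measure, since the added 0.5 compresses values that low. The added 0.5 also compresses the controls of cdca7a, at 0.430, 0.156 and 0.042 FPKM. The log2 fold change of cdca7a was 3.155 in edgeR and 1.745 under limma with that addition. Controls of some MCM loci are also that low, so their mean is compressed as well. Mcm2 (110528595), at 0.234 and 0.147 FPKM in control replicates 2 and 3, had 2.97 in edgeR and 2.02 under that limma fit.

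**Figure D4:**
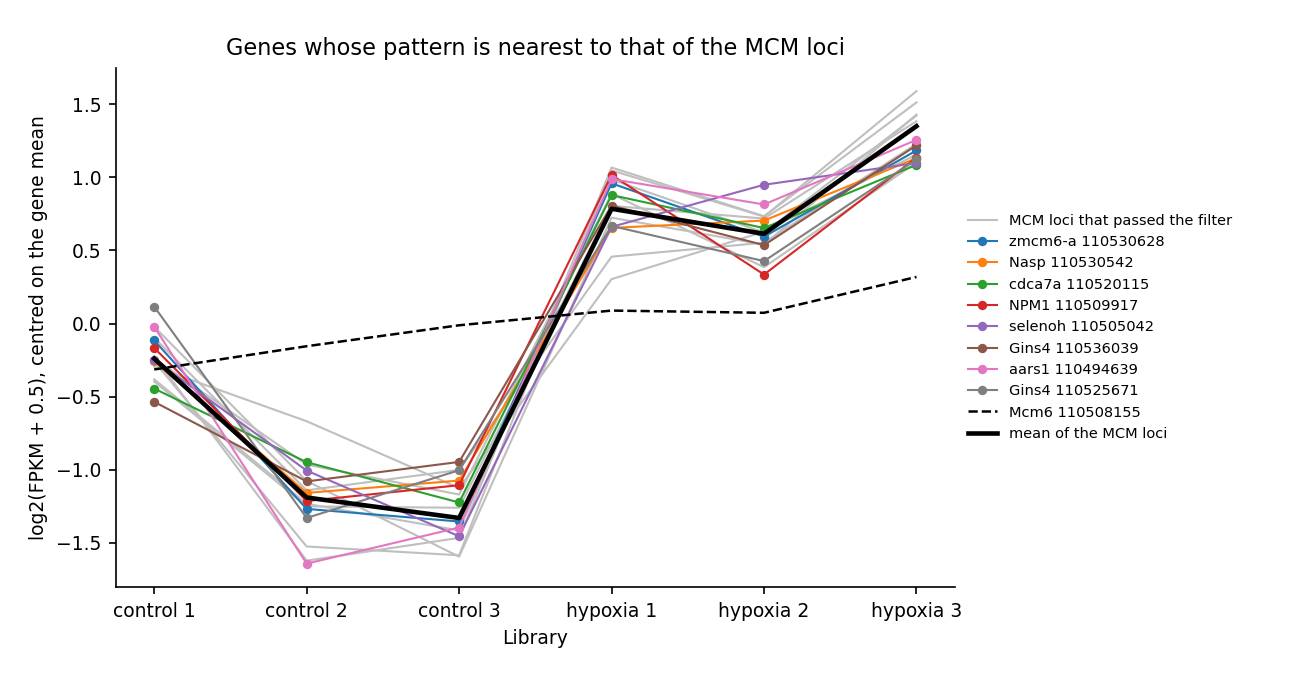
Centred log2(FPKM + 0.5) of the 8 MCM loci (grey), their mean (black), Mcm6 (dashed, its low values compressed by the added 0.5) and the 8 genes with the nearest pattern (coloured) in each library. Lines join the values of one gene and imply no order of libraries. The mean of the MCM loci is at -0.24 in control replicate 1, -1.19 and -1.33 in the other controls and 0.61 to 1.35 in hypoxia.

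Cell types other than hepatocytes were followed with lists of markers, since MCM genes are transcribed in cycling cells of any type, and in whole liver more cycling cells and more MCM RNA per cell cannot be told apart. Over all genes tested 3.83% were called higher and 3.39% lower. Red blood cell markers had 0 higher and 14 lower of 26 tested in edgeR, with a summed level of 979.7 to 1299 FPKM in controls and 550.6 to 696 FPKM in hypoxia. Of their 63 loci 25 had no count, GATA1 among them, and the most abundant were hba1 (110538448), hba1 (100136297) and hbb1 (118936252). Leukocyte markers had 0 higher and 1 lower of 21, with sums of 195 to 257 FPKM in controls and 202 to 223 FPKM in hypoxia, led by Cd74, cd74b and MPO, and Pax5 was at 0. Stellate and endothelial markers had 0 higher and 5 lower of 35, with sums of 311 to 400 FPKM in controls and 215 to 305 FPKM in hypoxia, led by col1a1b and 2 loci of col1a2. Bile duct markers had 0 higher and 0 lower of 16, with sums of 323 to 352 and 285 to 326 FPKM, led by 2 loci of krt18 and by ANXA4. Hepatocyte markers had 2 higher and 1 lower of 42, with sums of 118500 to 121300 FPKM in controls and 127900 to 134600 FPKM in hypoxia. The part of any of these cell types in the rise of the MCM loci was not tested.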

How the data were processed

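Liver RNA was extracted with Trizol, per the labels' protocols, and each group has 3 RNA-seq libraries. Per the file headers, the deposited table gives raw counts and FPKM values per gene and library, and the authors' log2 fold change, p-value and adjusted p-value. Tools listed in the submitters' processing notes, without their purpose, were Bowtie2 (2.2.8) and TopHat2 (2.1.1). Which counting tool, genome build and test the authors used was not given in the sources used here. Of the 42128 rows 41896 carry a gene number that matched the gene table of USDA_OmykA_1.1, the 11 MCM loci among them. Promoter and protein sequences were not used here.

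The members and the gene lists were chosen with earlier results of these data known. Counts were tested in R 4.3.3 with edgeR 4.0.16 (quasi-likelihood, TMM, group only, two-sided). Alternatives were DESeq2 1.42.0, limma 3.58.1 on log2(FPKM + 0.5), + 0.1 and + 1, other scalings and filters, a replicate block, summed copies and each library left out. The SE is the unshrunken log2 fold change over the square root of F. Replicates differed by more than counting noise (chi-square per degree of freedom 12.4 to 30.1). Named genes are every member, up to 4 called genes of each list by adjusted p, the 3 most abundant of each marker list and the 8 nearest patterns. Other genes named complete a step, a pair, a list or a small count and were chosen after their values were seen.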

Additional observations from a re-analysis of the deposited data

How the results depend on the processing

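The 8 MCM loci that passed the filter stayed higher with an adjusted p under 0.05 under DESeq2, the 3 limma pseudocounts, both other scalings and the replicate block. They also did so with no filter and with a mean of at least 1 FPKM. That mean is over all libraries. Only mcm3, mcm4 (110530465) and mcm7 had a control mean of 1 FPKM or more, so the other loci passed it only through hypoxia. This setting does not test that selection. With the filter on the controls alone 6 loci were tested and 6 were higher. With the copies of a subunit added, 5 subunits were called. Leaving out 1 library gave 5 to 8 loci higher and 0 lower, and 22 to 61 genes of the 7 related lists higher and 0 lower. Over all genes it called 361 to 2186 (229 to 1130 higher, 127 to 1056 lower). The 2186 were called without control replicate 1, and each of the other fits called between 361 and 496, against 1398 with all libraries. The cause was not tested. Over all genes limma called 826 (317 lower), 771 (466 higher, 305 lower) and 846 (323 lower) at pseudocounts of 0.5, 0.1 and 1, against 1398 in edgeR (741 higher, 657 lower), and the cause was not tested. Against 62 as reported, the related lists had 94 genes higher with no filter and 41 with a mean of at least 1 FPKM or a control mean of at least 0.5 FPKM, the last chosen after seeing the data. These settings test more or fewer loci. The fit with no filter also gave a lower adjusted p at every MCM locus that passed the filter. At mcm2 (110528595) the edgeR adjusted p was 2.21e-05 against 0.00793, at a log2 fold change of 2.97 in both fits. The reason was not tested, and calls that rest on the fit with no filter alone are limited by this. Without control replicate 1 the log2 difference of the summed mcm2 level went from 3.15 to 3.89 and that of mcm3 from 2.80 to 3.42. With 1 other library left out these differences went as low as 2.78 and 2.46.

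Replicate numbers are shared by the groups. Deviations from the group mean correlated at r = -0.0552, 0.0636 and -0.0543 between libraries of the same number, for replicates 1, 2 and 3. Libraries of different numbers gave r of -0.0675 to 0.1082. The labels do not say whether the numbers pair libraries, and 3 libraries in each group are too few to decide it. With the replicate block 555 genes were higher and 491 lower, 8 MCM loci were higher, and the mitosis list had 8 members higher and the G1/S list 3. The block ended the calls of Gmnn (adjusted p = 0.055) and lin52 (adjusted p = 0.0623). Promoter motifs were planned and not run. Depth limits what can be read from mcm3l and mcm6l, at 0 counts, and from Mcm6, at 10 to 33 counts in a library.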
